A study of Homo sapiens with 8 samples.

Results

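The 9 genes described here encode the laminin chains and the linker proteins of the endothelial basement membrane. They were chosen by symbol: the laminin chain genes LAMA4, LAMA5, LAMB1, LAMB2 and LAMC1, the nidogens NID1 and NID2, and the proteoglycans HSPG2 (perlecan) and AGRN (agrin). All 9 were found among the 34415 genes of the deposited table, and all 9 passed the filter on low values (a mean of at least 1 FPKM over the libraries), as did 10720 genes in all. FPKM counts fragments per kilobase of gene length, scaled to library depth. Levels of different genes are set side by side on that basis, and depend on the gene lengths the authors used. In some libraries levels also differed with GC content, as given below. The cells were TeloHAEC, a human aortic endothelial line made to divide indefinitely with telomerase, of wild-type genotype. There were 4 control libraries, given palmitic acid (a saturated fatty acid) alone, and 4 estradiol libraries, given palmitic acid and estradiol, the main estrogen. By the sample titles and the series' design text, palmitic acid was shared by both groups. The treatment field differs: it calls the controls only controls and names only palmitic acid for the estradiol libraries. Read by that field alone, the contrast would be palmitic acid against none, and every fold change below rests on the titles. The sources used here state neither dose nor time. The line is a single source of cells, and whether the replicates were separate cultures is not stated, so the spread behind each p-value is that among these libraries and could be technical.

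A laminin is a cross-shaped trimer of an alpha, a beta and a gamma chain, wound together along a coiled coil. Beta and gamma chains pair inside the cell first, and an alpha chain joins before the trimer is secreted. Outside the cell, laminin trimers bind integrins and dystroglycan on the cell surface. Nidogens bridge the gamma 1 chain to the type IV collagen network, perlecan binds nidogen, and agrin binds the laminin coiled coil. Vascular endothelium is known for trimers with the alpha 4 chain, whose short arm is truncated, and with the alpha 5 chain, which has a full short arm.

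Depth ran from 33420506 reads in estradiol replicate 2 to 39898970 in control replicate 4. Of 14 endothelial markers, 12 reached a mean of 1 FPKM, led by ESAM, while VWF and EMCN did not. Of the markers of other cells, 3 of 10 smooth muscle and pericyte genes (highest RGS5), 1 of 8 fibroblast genes (FBN1), 2 of 8 epithelial genes (highest KRT19) and 1 of 8 macrophage genes (CD68) did. The summed level of each marker list overlapped between the groups: 548 to 752 FPKM in control and 548 to 705 in estradiol libraries for the endothelial list, 33.1 to 36.2 and 32.4 to 33.7 for smooth muscle and pericytes, 17.0 to 19.2 and 17.0 to 18.6 for fibroblasts, 40.0 to 61.6 and 39.8 to 54 for epithelium, and 33.4 to 45.3 and 31.1 to 42.8 for macrophages. Among the listed markers of other cells, DES, LUM, KRT14 and CD163 were at 0 in all 8 libraries. Besides those named, ACTA2 and TAGLN of the smooth muscle list (means of 11.8 and 7.26 FPKM) and CLDN7 of the epithelial list (2.64) passed the filter. Control replicate 3 and estradiol replicate 4 stood apart from the other 6 libraries on the first principal component, which held 68.7% of the variance. Some values that rest on them are given with and without them, and others only over all 8 libraries.

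The proximal promoters of the chains of laminins 411 and 511 are shown because the alpha chain is what distinguishes these trimers, while LAMB1 and LAMC1 are common to both. Sequences are from RefSeq on GRCh38.p14, on the strand of the gene. Each ends before the first GENCODE start that falls within the 250 bases before the RefSeq start. Starts further upstream were not considered, so bases shown may lie within a transcript that begins there. Capitals mark the GC box, GGGCGG on either strand, a site type bound by Sp1 family factors. LAMA4 is from chr6:112254716-112254817 (minus strand), LAMA5 from chr20:62367313-62367562 (minus strand), LAMB1 from chr7:108003256-108003411 (minus strand) and LAMC1 from chr1:183023170-183023419 (plus strand).
LAMA4: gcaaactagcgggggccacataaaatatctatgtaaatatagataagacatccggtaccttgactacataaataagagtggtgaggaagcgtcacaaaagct
LAMA5: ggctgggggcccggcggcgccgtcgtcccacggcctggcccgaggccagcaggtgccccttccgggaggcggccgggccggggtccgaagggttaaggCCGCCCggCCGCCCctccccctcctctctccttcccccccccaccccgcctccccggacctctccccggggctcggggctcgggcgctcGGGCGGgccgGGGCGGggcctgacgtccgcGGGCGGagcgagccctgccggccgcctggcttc
LAMB1: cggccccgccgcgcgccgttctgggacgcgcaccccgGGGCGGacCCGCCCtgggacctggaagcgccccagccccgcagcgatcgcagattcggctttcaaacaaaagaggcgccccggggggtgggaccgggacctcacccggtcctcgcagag
LAMC1: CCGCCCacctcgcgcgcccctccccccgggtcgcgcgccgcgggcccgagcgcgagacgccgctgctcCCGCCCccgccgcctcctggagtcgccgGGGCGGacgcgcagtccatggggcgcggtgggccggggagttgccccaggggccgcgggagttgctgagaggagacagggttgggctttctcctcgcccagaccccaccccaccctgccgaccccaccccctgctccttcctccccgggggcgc

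The 4 sequences differ in base composition, with that of LAMA4 the poorest in GC. In the 250 bases before the RefSeq start, LAMA4 was 48.4% GC with 0 GC boxes, and LAMA5 was 82.8% GC with 5. LAMB1 held 4 boxes at 70.4% GC (2 of them in the bases shown), and LAMC1 held 3 at 79.6% GC. The median over all 35114 RefSeq windows of this length was 58.0% GC, and 42.6% of them held a GC box. Of the 8 members matched in that table, 7 held at least 1, with LAMA4 the exception. HSPG2 held the most, with 8 boxes counting overlaps at 82.8% GC. The palindromic estrogen response element, GGTCANNNTGACC, was in 0 of the 8 windows and in 0.0399% of all windows. The GGTCA motif alone, on either strand and part of the palindrome, was in 0 of the 8 windows and in 32.7% of all. A match describes letters only, and the absence of these letters says nothing of binding elsewhere.

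The gamma 1 chain, which all 4 trimers of the member chains need, was abundant and steady. LAMC1 measured 68.7, 74.1, 64.9 and 76.6 FPKM in control replicates 1 to 4 and 74.2, 73.2, 71.9 and 64.2 in estradiol replicates 1 to 4. The groups overlapped, and the lowest value in each was in the library that stood apart. The control mean was 71.1 ± 5.26 and the estradiol mean 70.9 ± 4.57 (SD, n = 4 each), from 19305 to 24226 reads per library. In RNA from whole cultures, fewer expressing cells and less RNA per cell cannot be told apart, here and in every comparison below.

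The 2 alpha chains were unequal, with LAMA4 the higher in all 8 libraries. LAMA4, whose chain forms laminins 411 and 421, measured 65.7, 74.5, 72.8 and 73.2 FPKM in control libraries and 67.9, 69.9, 70.8 and 71.3 with estradiol, in replicate order. It was lowest in control replicate 1, and its level in the pair that stood apart lay within that of the others. LAMA5, whose chain forms laminins 511 and 521, measured 32.2, 28.0, 18.7 and 30.1 FPKM in control libraries and 31.1, 29.1, 24.1 and 20.4 with estradiol. Control replicate 3 and estradiol replicate 4 were lowest in their groups, and estradiol replicate 3 was below the remaining libraries. The means were 71.5 ± 3.98 and 70 ± 1.52 FPKM for LAMA4 and 27.3 ± 5.94 and 26.2 ± 4.82 for LAMA5 (SD, n = 4 each, control first).

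The beta chains were also unequal. LAMB1, which pairs with either alpha chain in laminins 411 and 511, had the highest level of all 9 genes, at 118, 121, 115 and 125 FPKM in control libraries and 124, 123, 122 and 112 with estradiol. It ranked 434 among the 10720 tested genes. LAMB2, the beta chain of laminins 421 and 521, known from neuromuscular and kidney basement membranes as well as vessels, measured 58.4, 57.2, 41.8 and 59.6 FPKM in control libraries and 59.8, 57.5, 54.1 and 40.7 with estradiol. The 2 libraries that stood apart were the lowest for both beta chains, by a wider margin for LAMB2. Group means were 120.0 ± 4.67 and 120.0 ± 5.29 FPKM for LAMB1 and 54.2 ± 8.36 and 53.0 ± 8.54 for LAMB2 (SD, n = 4 each, control first).

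**Figure D1:**
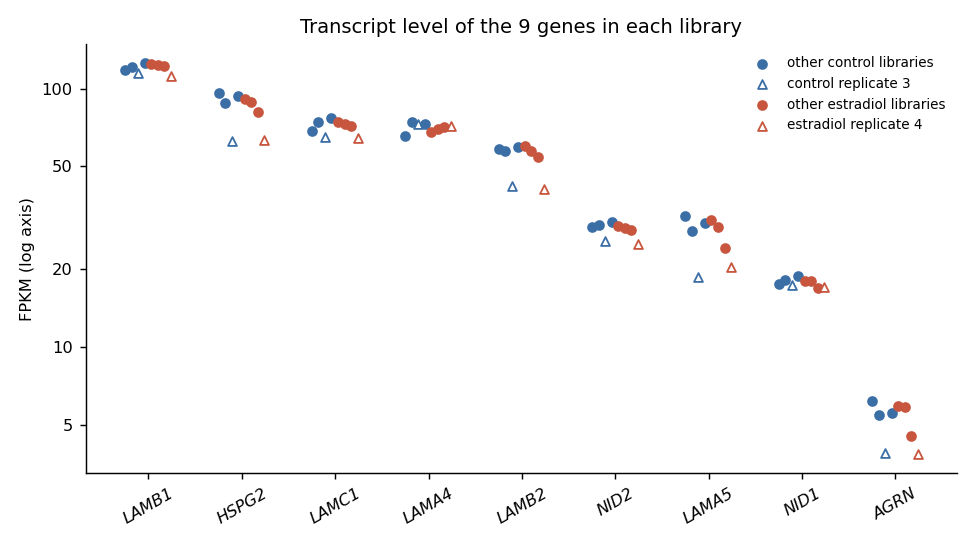
Level of each of the 9 genes in every library, in FPKM on a log axis; each point is a library, and open triangles are control replicate 3 and estradiol replicate 4. Groups overlap for every gene, and the open triangles lie lowest for every gene except LAMA4 and NID1.

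The linkers spanned a wider range. NID1, the nidogen found in nearly all basement membranes, measured 17.5, 18.2, 17.3 and 18.8 FPKM in control libraries and 18.0, 18.0, 16.9 and 17.1 with estradiol. NID2, its partly redundant paralog, measured 29.2, 29.7, 25.6 and 30.5 in control libraries and 29.4, 28.9, 28.4 and 25.1 with estradiol. NID2 was thus the higher nidogen in every library, by 1.47 to 1.68 times. HSPG2, whose core protein carries heparan sulfate chains, measured 96.1, 87.6, 62.5 and 93.3 FPKM in control libraries and 91.3, 88.5, 81.0 and 63.2 with estradiol. Its lowest values were again those of control replicate 3 and estradiol replicate 4. AGRN, the second heparan sulfate proteoglycan and a ligand of dystroglycan, was the lowest of the 9 genes, at 6.19, 5.45, 3.89 and 5.53 FPKM in control libraries and 5.91, 5.86, 4.51 and 3.86 with estradiol. HSPG2 exceeded AGRN by 15.1 to 18.0 times within a library.

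By mean level over the 8 libraries the order was LAMB1 (120.0 FPKM), HSPG2 (83.0), LAMC1 (71.0), LAMA4 (70.8), LAMB2 (53.6), NID2 (28.4), LAMA5 (26.7), NID1 (17.7) and AGRN (5.15). Neighbours whose ranges over libraries overlapped were HSPG2 and LAMC1, LAMC1 and LAMA4, NID2 and LAMA5, and LAMA5 and NID1. LAMA5 nevertheless exceeded NID1 in 8 of 8 libraries, HSPG2 exceeded LAMC1 in 6 of 8, and LAMC1 exceeded LAMA4 in 5 of 8. Without control replicate 3 and estradiol replicate 4, HSPG2 (81.0 to 96.1 FPKM) stood clear of LAMC1 (68.7 to 76.6). LAMA5 (24.1 to 32.2) likewise stood clear of NID1 (16.9 to 18.8) there, while the other neighbours named still overlapped. Over all 8 libraries LAMB1 stood clear of HSPG2, LAMA4 of LAMB2, LAMB2 of NID2, and NID1 of AGRN. These levels rest on the gene lengths the authors used, recovered as 7544 bases for LAMA4, 11573 for LAMA5, 6502 for LAMB1, 5708 for LAMB2 and 7929 for LAMC1. Antisense neighbours were scarce, with 0 to 1 reads per library for LAMA4-AS1, 0 to 26 for LAMA5-AS1 and 0 to 2 for LAMC1-AS1. Whether counting used strand is not stated in the sources used here, so antisense reads within the members' exons cannot be told apart.

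Transcript levels set a frame for which laminin trimers could be assembled, though RNA does not show that a trimer was made. All 3 chains of 4 known trimers built from the member chains were present: 411, 421, 511 and 521, named by their alpha, beta and gamma numbers. The least abundant chain by mean FPKM was LAMA4 for 411 (70.8, with LAMC1 at 71.0), LAMB2 for 421 (53.6), and LAMA5 for 511 and 521 (26.7). For 411 that order turns with the gene length used: per length of the longest coding GENCODE transcript, LAMA4 stood at 1.15 times LAMC1 on average, making LAMC1 the least abundant chain. Summed alpha chains (LAMA4 and LAMA5) ranged from 91.6 to 103 FPKM over the libraries, summed beta chains from 153 to 185, and LAMC1 alone from 64.2 to 76.6. The gamma chain was the lowest of the 3 classes in all 8 libraries. Alpha chains stood at 1.39 ± 0.0339 times LAMC1 in control libraries and 1.36 ± 0.0497 times with estradiol, and beta chains at 2.45 ± 0.0774 and 2.44 ± 0.0389 times (SD, n = 4 each). Groups overlapped for both ratios.

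**Figure D2:**
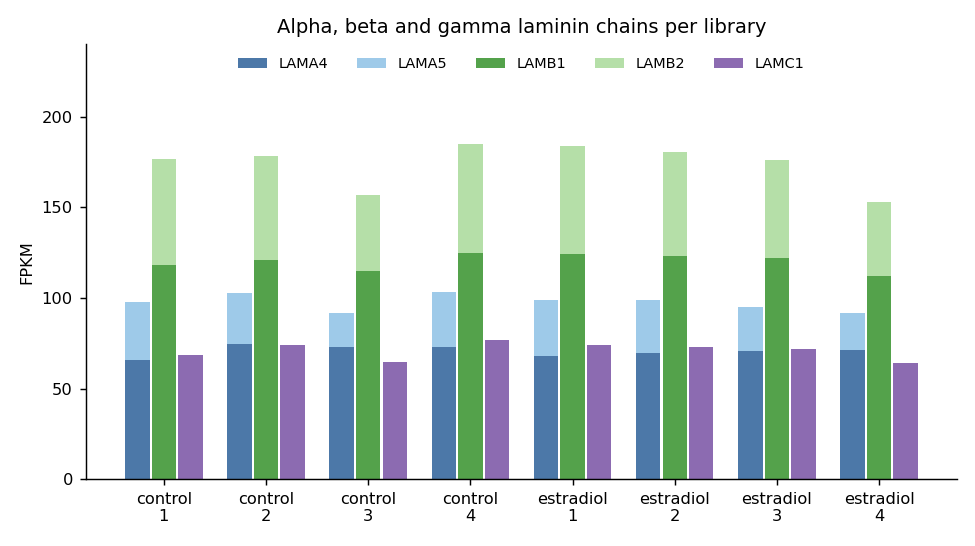
Stacked FPKM of the alpha chains (LAMA4, LAMA5), the beta chains (LAMB1, LAMB2) and the gamma chain LAMC1 in each of the 8 libraries; each bar is a single library. The beta stack is the tallest and the gamma bar the shortest in every library, and the LAMA5 segment is smallest in control replicate 3.

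The balance within the alpha and beta pairs moved more than the sums. LAMA4 exceeded LAMA5 by 2.04, 2.66, 3.89 and 2.43 times in control and 2.18, 2.40, 2.94 and 3.49 times in estradiol replicates 1 to 4. Control replicate 3 and estradiol replicate 4 had the highest values, and in the other 6 libraries the range was 2.04 to 2.94. The mean was 2.75 in both groups (SD 0.797 in control and 0.585 in estradiol, n = 4 each). LAMA5 was thus 20.5% to 32.9% of the summed alpha chains, and 25.4% to 32.9% without that pair of libraries. LAMB1 exceeded LAMB2 by 2.25 ± 0.333 times in control libraries and 2.30 ± 0.313 times with estradiol (SD, n = 4 each), with 2.02 to 2.26 in the 6 libraries and 2.74 and 2.76 in control replicate 3 and estradiol replicate 4. Both ratios overlapped between the groups.

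Other laminin chain genes added a minor set with alpha 3. LAMB3, a beta chain best known from epithelia, ranged from 9.0 to 13.4 FPKM in control libraries and from 8.32 to 12.5 with estradiol. LAMA3 measured 3.39 to 3.89 and 2.98 to 3.78 FPKM, so the groups overlapped for both. RNA of every chain of laminins 311 and 321 was therefore above 1 FPKM on average, with LAMA3 (3.55) the least abundant chain of each. LAMA3 was 3.15% to 3.68% of the sum of LAMA3, LAMA4 and LAMA5, and LAMB3 was 5.16% to 7.05% of the sum of LAMB1, LAMB2 and LAMB3. LAMA1, LAMA2, LAMB4 and LAMC3 stayed under 1 FPKM, the highest single value being 0.219 for LAMB4 in estradiol replicate 4. LAMA1 had 4 to 11 reads per library, LAMA2 34 to 57 and LAMC3 0 to 2. The known trimers 111, 211, 221 and 213 thus lacked a chain at 1 FPKM, being LAMA1, LAMA2 or LAMC3.

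No member passed the limma test of estradiol against control. At an adjusted p under 0.05, 0 of the 9 passed as higher and 0 as lower, beside 0.0% of 10720 genes called higher and 0.0% called lower. The unadjusted p of the members ran from 0.664 to 0.975, so 0 were under 0.05, beside 26 genes (0.243%) of all tested. That share is far below the 0.05 that such p-values give where nothing differs. The p-values of this fit thus ran high, and a high p of a member does not show that it was unchanged. With control replicate 3 and estradiol replicate 4 left out, 416 genes were under 0.05 by limma. The lowest unadjusted p of a member was 0.178 there. limma-voom on recovered reads also called 0 genes, with 22 at an unadjusted p under 0.05. Groups overlapped for 9 of 9 members, beside 57 genes (0.532%) of all tested whose groups did not, 33 (0.308%) of them higher and 24 (0.224%) lower with estradiol. The median log2 fold change was -0.03 over the members, with 8 negative and 1 positive, beside -0.00047 over all genes tested, of which 50.5% were negative. Fold changes are of FPKM + 1, which understates the change of low genes such as AGRN.

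The intervals say how large a change these libraries could hide. For LAMA4 the log2 fold change was -0.03 with a 95% interval of -0.21 to 0.15, and for LAMB1 it was 0.01 (-0.17 to 0.18). LAMC1 lay at 0.00 (-0.20 to 0.20), NID1 at -0.03 (-0.20 to 0.14) and NID2 at -0.04 (-0.25 to 0.16). The GC-rich members had wider intervals: LAMA5 at -0.05 (-0.45 to 0.36), HSPG2 at -0.06 (-0.42 to 0.30), AGRN at -0.06 (-0.40 to 0.28) and LAMB2 at -0.03 (-0.37 to 0.31). When control replicate 3 and estradiol replicate 4 were left out the intervals narrowed, to -0.31 to 0.11 for LAMA5 and -0.22 to 0.05 for HSPG2. Their log2 fold changes were -0.10 and -0.09 there, and the lowest adjusted p of any member was 0.992 by limma. A change of 2-fold in FPKM + 1 lay outside all 9 intervals in both fits.

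**Figure D3:**
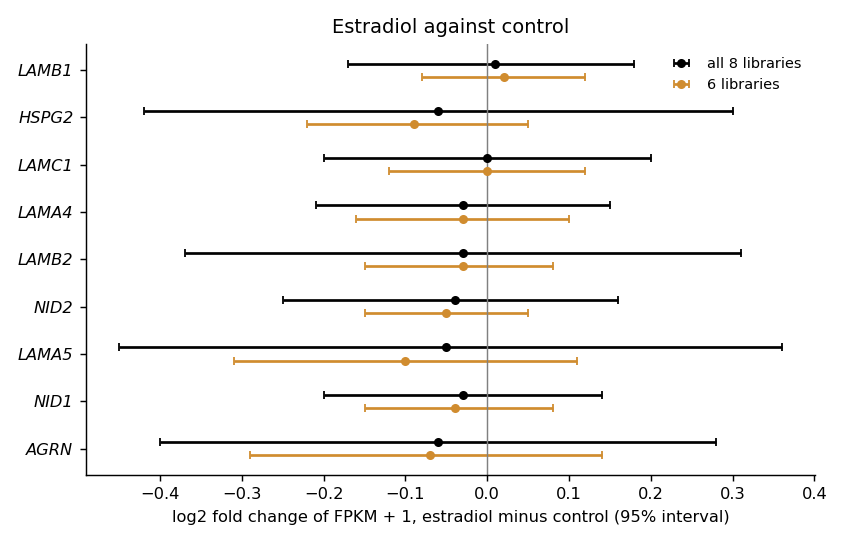
Estradiol minus control log2 fold change of FPKM + 1 for each of the 9 genes, with its 95% interval from limma; black is the fit to all 8 libraries and orange the fit that leaves out control replicate 3 and estradiol replicate 4. Every interval crosses 0, and the widest is that of LAMA5 at -0.45 to 0.36 in the 8 libraries.

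The members fell into a GC-rich set and a remainder, and the sets differed in the pair of libraries that stood apart. The longest coding GENCODE transcript was 67.5% GC for AGRN, 66.4% for LAMA5, 64.5% for HSPG2 and 60.3% for LAMB2, all above the upper quartile of tested genes (56.6%). The other 5 ranged from 46.6% for LAMA4 to 52.0% for NID2. In control replicate 3 and estradiol replicate 4, mean log2(FPKM + 1) lay below that of the other 6 libraries by 0.54 for LAMA5, 0.50 for HSPG2, 0.47 for LAMB2 and 0.43 for AGRN. For NID2, LAMC1, LAMB1 and NID1 the differences were -0.20, -0.18, -0.11 and -0.05, and for LAMA4, the member with the least GC, 0.04. Over 9985 tested genes with a GC value, the median difference was -0.43 at or above the upper quartile of GC and 0.41 at or below the lower (42.0%). Across those genes, which are not independent replicates and share these libraries, the rank correlation of the difference with GC content was -0.90. The part of base composition in the LAMA4 to LAMA5 and LAMB1 to LAMB2 ratios was not tested.

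**Figure D4:**
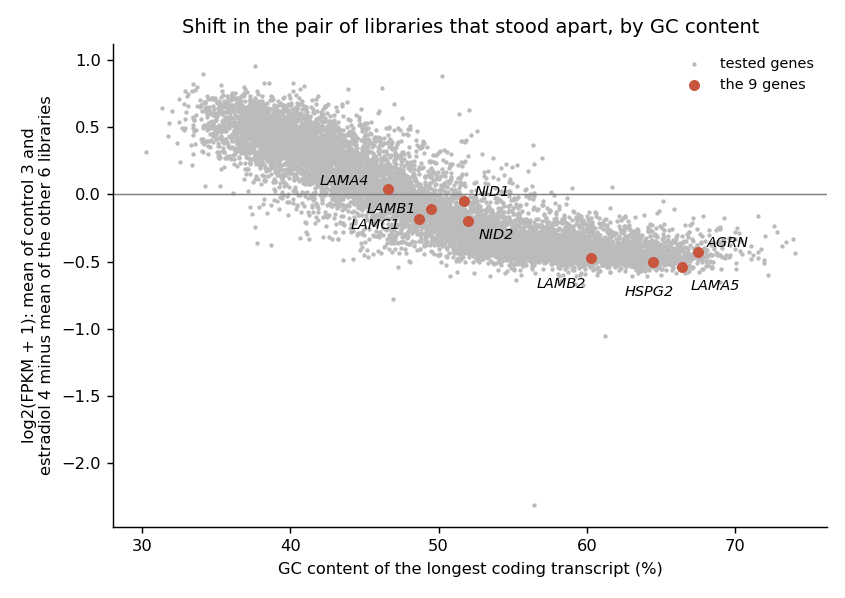
Difference in mean log2(FPKM + 1) between 2 libraries (control replicate 3, estradiol replicate 4) and the other 6, against GC content in percent of the longest coding transcript; grey points are 9985 tested genes, red points the 9 genes. LAMA5, HSPG2, LAMB2 and AGRN lie at 60.3% GC or more with differences from -0.54 to -0.43, and LAMA4 lies at 46.6% GC and 0.04.

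Receptors for these proteins were present and did not pass the test either. Of 10 laminin receptor genes 6 were tested, with 0 called in either direction and a median log2 fold change of -0.03. CD151, a tetraspanin partner of laminin-binding integrins, stood at 327 ± 56.7 FPKM without and 320.0 ± 51.9 with estradiol. ITGB1, the common integrin beta 1 subunit, measured 302 ± 43.3 and 310.0 ± 42.6, and MCAM, a receptor of alpha 4 laminins, 207 ± 33.5 and 200 ± 26.4 (SD, n = 4 each). BCAM, a receptor of the alpha 5 chain, reached at most 0.378 FPKM in a library, and LRP4, the agrin receptor, at most 0.886. Among the basement membrane collagens 6 of 9 were tested, with 0 called and a median of -0.04. COL4A2, a chain of the type IV collagen network that nidogens bind, stood at 53.6 ± 7.98 and 52.3 ± 7.89 FPKM, COL18A1 at 39.8 ± 9.66 and 36.5 ± 4.59 and COL8A1 at 11.1 ± 0.668 and 10.7 ± 0.499 (SD, n = 4 each, control first).

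The genes that modify or cleave the members showed 0 calls by limma. Of 13 enzymes that build the laminin-binding sugar of dystroglycan 10 were tested (median log2 fold change -0.02), with POMGNT1 at 19.4 ± 3.27 and 19.8 ± 3.22 FPKM and B4GAT1 at 12.5 ± 1.24 and 12.4 ± 0.848. Of 19 heparan sulfate genes 16 were tested (median -0.02), with the heparanase HPSE at 37.7 ± 3.23 and 38.6 ± 3.68 FPKM and the chain polymerase subunit EXT1 at 32.4 ± 1.93 and 31.9 ± 2.98. Of 11 proteases 7 were tested (median -0.05), with CTSL at 232 ± 11.5 and 235 ± 27.9 FPKM and CTSB at 222 ± 30.7 and 218 ± 26.6, both lysosomal cathepsins. Of 12 other basement membrane proteins 7 were tested (median -0.01), with the collagen-binding SPARC at 324 ± 5.61 and 327 ± 18.5 FPKM and the lysyl oxidase LOXL2 at 227 ± 32.2 and 226 ± 31.0 (SD, n = 4 each, control first).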

How the data were processed

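RNA-seq of 4 control and 4 estradiol libraries was used as a single deposited table of FPKM values, a row per gene symbol, made by the authors. Per the submitters' processing notes, fastp 0.20.1 and HTSeq were used; the aligner, genome build, annotation and strand setting were not given in the sources used here. Groups came from sample titles, with which the treatment field is at odds. Whole reads were recovered from the steps between FPKM values for 21251 genes, with 100.0% of 150128 values whole within 0.001. They gave depth, gene lengths and reads behind a value. limma 3.58.1 (R 4.3.3, mean-variance trend, two-sided, Benjamini-Hochberg over the 10720 genes whose mean reached 1 FPKM) was fitted to log2(FPKM + 1) of all 8 libraries. The fit was also run on simulated data with independent noise in each gene. Those data held no shift shared by a whole library, such as that of control replicate 3 and estradiol replicate 4. GC content came from GENCODE 29 transcripts matched by symbol, with no coordinates shared with the deposited values; Python 3.11.15 was used. Members and lists were chosen with earlier results of these data known. Some genes are not reported here. Named besides the members and other laminin chains are the genes of highest mean in each list (3 for receptors and collagens, 2 for the rest, 1 for markers). BCAM and LRP4 were named after their values were seen, as were markers listed at 0 or under the filter. The same holds for ACTA2, TAGLN and CLDN7. Alternatives were other pseudocounts, filters, scalings, a replicate block, left-out libraries, a term for the pair of libraries and limma-voom.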

Additional observations from a re-analysis of the deposited data

Results flagged for a closer look

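Groups of 4 libraries were examined for a library far from the others, 36 in all (12 laminin and linker genes at 1 FPKM or more and 6 ratios, in each group). Of these, 4 held such a library, where chance gives about 1 in 20 for independent groups. The groups examined share libraries and the ratios reuse the genes, so the count cannot be set against that rate. In estradiol replicate 4, LAMB1 was 112 FPKM, and its group otherwise ranged from 122 to 124. LAMB2 was 41.8 FPKM in control replicate 3, against 57.2 to 59.6 in the other control libraries. The ratio of LAMB1 to LAMB2 was 2.74 in control replicate 3, against 2.02 to 2.12 in the other controls. The ratio of the beta chains to LAMC1 was 2.57 in control replicate 1, against 2.41 to 2.42 in the others.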

How the results depend on the processing

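The count of genes called was 0 under all 17 alternatives. Genes at an unadjusted p under 0.05 ran from 4 of 7221 (filter at a mean of 5 FPKM) to 437 of 23471 (no filter). They were 416 of 10720 when control replicate 3 and estradiol replicate 4 were both left out. Same-numbered deviations from the group means correlated at 0.616, 0.073, -0.478 and -0.737, and those of control replicate 3 and estradiol replicate 4 at 0.791. With that pair standing apart, the correlations cannot show whether same-numbered libraries were handled together, which the labels do not state. With the replicate block in the limma fit, 0 genes were called and 11 had an unadjusted p under 0.05. With 1 library left out, log2 fold changes ranged from -0.21 to 0.061 for LAMA5, -0.016 to 0.037 for LAMB1, -0.15 to 0.087 for LAMB2, -0.045 to 0.044 for LAMC1, -0.094 to 0.0073 for NID2, -0.20 to 0.052 for HSPG2 and -0.17 to 0.043 for AGRN, changing sign in all 7. Each was lowest without control replicate 3 and highest without estradiol replicate 4. LAMB1 was -0.0019 and LAMC1 0.0010 under quantile normalization, and LAMC1 was 0.0016 with both those libraries left out; the cause was not tested. LAMA4 and NID1 stayed negative throughout. Per length of the longest coding GENCODE transcript, chosen after seeing the data, alpha chains stood at 1.52 and beta chains at 2.65 times LAMC1, through the lengths alone. LAMA4 to LAMC1 then moved from 1.0 to 1.15, past its highest library (1.12). The lowest adjusted p of a member by limma under any alternative was 0.791. Depth limits what can be said of LAMA1, LAMA2, LAMB4 and LAMC3, with at most 77 reads in a library.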

Other observations

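COL4A1 and COL4A2, the chains of the common type IV collagen, stood far apart in the deposited FPKM, with COL4A2 6.66 to 8.42 times COL4A1 within a library. The length the authors used for COL4A1 was 15595 bases, against 6616 in its longest coding GENCODE transcript, while for COL4A2 the lengths were 6446 and 6494. Per length of those transcripts, COL4A1 would stand at 13.2 to 17.0 and COL4A2 at 40.6 to 58.2, a ratio of 2.80 to 3.55. COL4A5 and COL4A6, which belong to minor type IV networks, measured 9.09 and 10.1 FPKM on average, and COL4A3 and COL4A4 at most 0.0103 in a library. NTN4, a netrin that binds the laminin gamma 1 chain and opens laminin networks, stood at 94.3 ± 7.59 FPKM without and 94.8 ± 6.84 with estradiol (SD, n = 4 each; log2 fold change 0.01), above LAMC1 in all 8 libraries. These genes were chosen after their values were seen.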
